A study of Mus musculus with 12 samples.

Results

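The 10 genes described here are members of the circadian clock, and they were followed in the 12 libraries of sorted bone marrow cells from control mice and from mice with hypertension, atherosclerosis or myocardial infarction (MI). They were chosen by name and matched from symbol to Ensembl gene ID, and all 10 were found among the 55421 genes of the count table and among the 15999 genes with enough counts to test. *Arntl* (also called Bmal1), *Npas2*, *Clock* and *Cry1* form one arm, named here the Arntl-phase arm, and *Dbp*, *Tef*, *Nr1d1*, *Nr1d2*, *Per1* and *Per2* form the other, the Dbp-phase arm.

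Cells were sorted by flow cytometry from 3 mice in each group, and each mouse gave 1 library. Controls (Ctr) were naive C57BL/6J mice. Hypertensive mice (HTN) were C57BL/6J mice in which an implanted pump released angiotensin II, the peptide hormone of blood pressure control. Atherosclerotic mice (ApoE) carried the Apoe(tm1Unc) knockout, which removes apolipoprotein E, and were kept on a western diet according to the study's methods. Mice with MI were C57BL/6J mice for which the labels give day 2 after the infarct, while the study's text gives a later day for this cell type. All mice were 20 weeks old. Naive C57BL/6J controls served for every disease group, so genotype and diet cannot be told apart in ApoE. In MI and HTN the disease cannot be told apart from the surgery and the analgesia given with it. The time of day at which marrow was taken is not given in the sources used here. The replicates are numbered 2, 3 and 4 in all groups, and values are given below in that order.

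The clock is a feedback loop of transcription. ARNTL pairs with CLOCK or NPAS2, binds E-box sequences and switches on the *Per*, *Cry*, *Nr1d* and *Dbp* genes; PER and CRY proteins then block the pair, NR1D1 and NR1D2 repress *Arntl*, and DBP and TEF activate genes through D-box sequences. In most tissues *Arntl*, *Npas2* and *Clock* therefore peak at nearly the opposite time of day from *Dbp* and *Nr1d1*, with *Per1*, *Per2* and *Cry1* following at their own phases. In bone marrow, clock genes are known to oscillate in several blood cell types and in vessel walls, and the release of blood stem cells from marrow follows a daily rhythm.

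Total counts lay between 17007088 and 25136936 per library, at which 3 counts correspond to 0.116 to 0.176 CPM (counts scaled to an equal library total with TMM factors, a correction for library composition). *Apoe*, the gene deleted in ApoE mice, was at 7.28 to 14.8 CPM in the ApoE libraries and at 450.5 to 1503 CPM in the other libraries. The label of endothelial cells was checked against markers: 12 endothelial genes summed to between 141 and 283 CPM, and *Cdh5*, which encodes VE-cadherin, was at 1.997 to 4.19 CPM. Sums over markers, here and below, are per total count without TMM factors. Antibodies to Ly6G, CD11b and TER-119 were among those the study used for lineage depletion. Endothelial cells were gated as negative for CD45 and high in CD31, among other markers. The study reports high purity of its sorted cells by flow cytometry. Even so, markers of neutrophils summed to between 34653 and 91152 CPM, and markers of erythroid cells to between 7565 and 22570 CPM. The values below are therefore those of the sorted material as a whole. In such bulk libraries, fewer cells of a type and less RNA per cell cannot be told apart. MI replicate 2 stood apart from the other libraries in a set of glucocorticoid-responsive genes described below, so results that rest on it are given with and without it.

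The stretches upstream of the members' start sites were read from RefSeq windows of build GRCm38.p6 (250 bases before and 50 after each start), which held 1 or more windows for 9 of the 10 members and none for *Per2*. They were searched on both strands for the E-box CACGTG, for the related sequence CACGTT (E-prime box), for the D-boxes TTATGTAA and TTACGTAA, and for AGGTCA, the core of the element to which ROR and NR1D proteins bind (ROR core). The sequences printed are those of *Arntl*, *Tef* and *Per1*, the members with an unadjusted p under 0.05 in a comparison below, with the matches in capitals. All lie on the plus strand. The 30 bases of *Arntl*, at chr7:113207530-113207559, lie downstream of the second start and hold a ROR core. The 250 bases before each *Arntl* start held no match. The stretches before both *Tef* starts, at chr15:81802423-81802672 and chr15:81811164-81811413, each hold 1 E-box. The stretch before the first *Per1* start, at chr11:69098699-69098948, holds 1 E-box and, on the other strand, 1 ROR core (TGACCT as printed).
Arntl, 30 bases: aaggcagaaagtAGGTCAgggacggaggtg
Tef, first start: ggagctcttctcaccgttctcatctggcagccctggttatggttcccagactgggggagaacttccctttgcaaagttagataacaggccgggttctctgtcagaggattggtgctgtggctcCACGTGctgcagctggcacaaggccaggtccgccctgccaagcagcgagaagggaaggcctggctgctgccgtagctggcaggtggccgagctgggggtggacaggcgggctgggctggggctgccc
Tef, second start: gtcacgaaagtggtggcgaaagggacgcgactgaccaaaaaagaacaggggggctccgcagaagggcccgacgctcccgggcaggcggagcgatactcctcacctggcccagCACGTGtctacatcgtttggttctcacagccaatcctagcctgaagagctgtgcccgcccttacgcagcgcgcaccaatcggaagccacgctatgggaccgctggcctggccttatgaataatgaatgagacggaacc
Per1, first start: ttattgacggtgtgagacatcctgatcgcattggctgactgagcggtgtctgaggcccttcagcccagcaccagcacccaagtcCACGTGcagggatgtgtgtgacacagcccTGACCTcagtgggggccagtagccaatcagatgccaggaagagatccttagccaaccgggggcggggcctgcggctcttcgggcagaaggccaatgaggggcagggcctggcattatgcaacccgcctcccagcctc
The E-box was found for 3 of the 9 members with a window (*Cry1*, *Tef* and *Per1*), against 7.15% of 32851 windows and 8.09% of genes with a window. The E-prime box was found for 2 (*Cry1* and *Nr1d1*), against 4.68% of windows and 5.44% of genes, and the ROR core for 4 (*Arntl*, *Clock*, *Nr1d2* and *Per1*), against 16.3% of windows and 18.1% of genes. No member's window held a D-box of these spellings, which 1.06% of windows and 1.23% of genes held. A match is a match of letters and not a measured binding site.

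Levels of different genes were compared per kilobase of exon sequence. *Cry1*, which encodes a repressor of the loop, had the highest level at 16.2 ± 2.04 CPM per kb (SD, n = 12), followed by *Arntl* at 4.07 ± 1.24 (SD, n = 12), *Per1* at 2.03 ± 0.961 (SD, n = 12) and *Per2* at 1.78 ± 0.292 (SD, n = 12). *Dbp*, *Tef*, *Nr1d2* and *Clock* lay close together at 1.44, 1.10, 1.09 and 1.03 CPM per kb, with SDs of 0.261, 0.303, 0.281 and 0.198 (n = 12). *Nr1d1* was at 0.585 ± 0.212 (SD, n = 12) and *Npas2* at 0.084 ± 0.034 (SD, n = 12). *Npas2* rested on 5 to 12 counts per library, and its values are given but carry wide errors. *Cry1* and *Arntl* were separated from each other and from the genes after them by more than either SD, whereas *Per1* and *Per2*, and likewise *Tef*, *Nr1d2* and *Clock*, differed by less than theirs. Across libraries, *Cry1* moved least, with a highest value 1.53 times its lowest, and *Arntl* moved most, with 3.78 times, followed by *Per1* with 3.49 times. Both rest on MI replicate 2. Over the other 11 libraries the values were 1.97 times for *Arntl* and 1.45 times for *Per1*, the smallest of the members, and *Npas2* (3.07), *Nr1d1* (2.90) and *Nr1d2* (2.82) moved most.

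**Figure D1:**
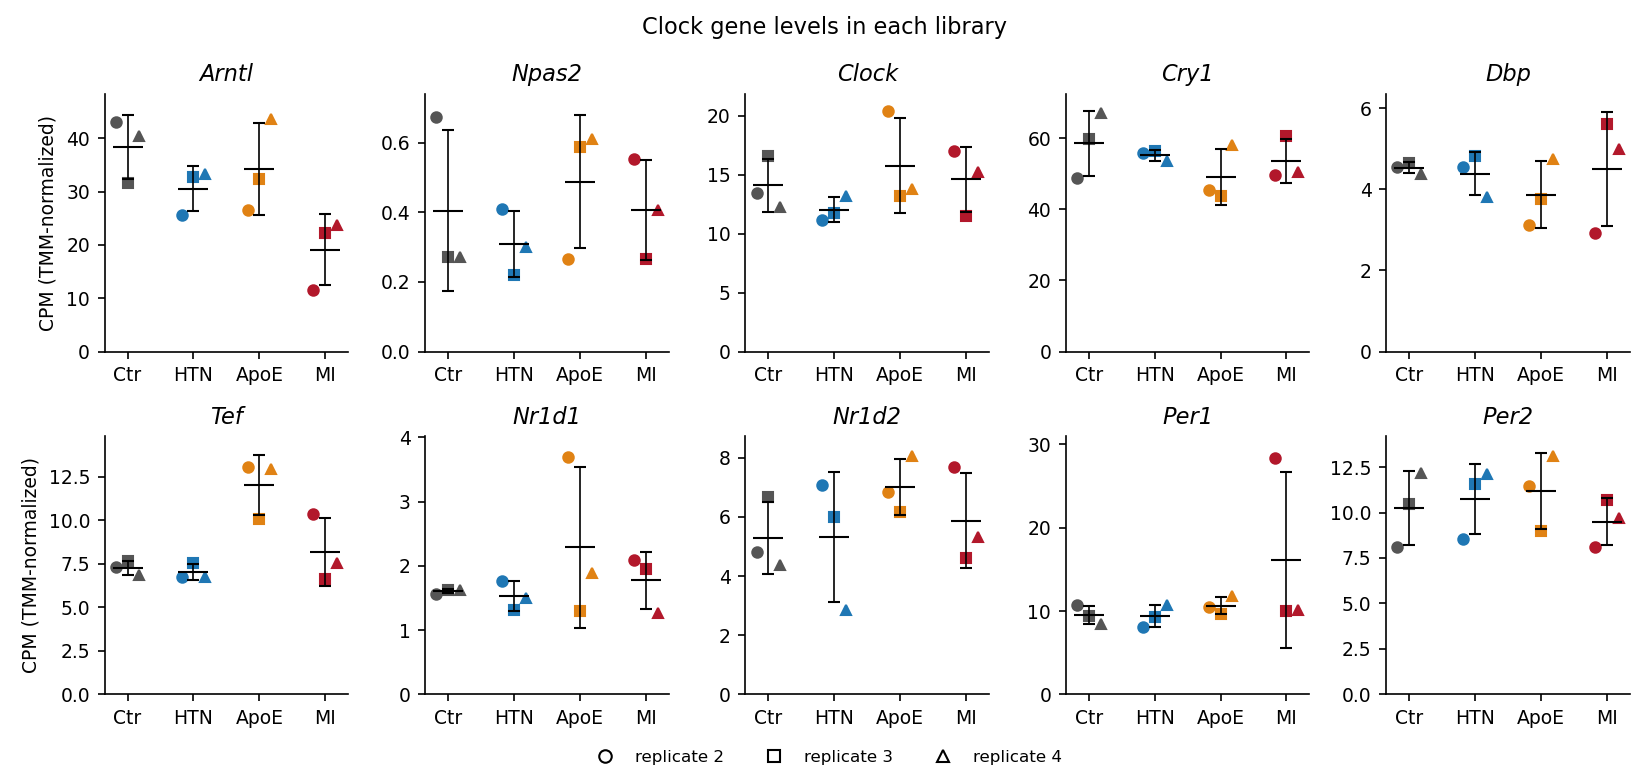
Level of each clock gene (vertical axis, TMM-normalized CPM, each panel from 0 with its own scale) in the 12 libraries by group (horizontal axis). Points are single mice with the shape giving the replicate number, and horizontal lines with bars are group means ± SD (n = 3). For *Arntl*, all 3 MI points lie below every other library; for *Tef*, the ApoE points lie above all controls; for *Per1*, MI replicate 2 lies alone at 28.3 CPM.

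The first comparison asked whether clock genes differ from controls after MI. No member passed the threshold of an adjusted p under 0.05 in edgeR's quasi-likelihood test over all 15999 genes, and no gene in that comparison did (0%). At an unadjusted p under 0.05, 1 member was lower (*Arntl*) and 1 was higher (*Per1*), 2 of 10 members against 2.8% of all genes, or 1.57% lower and 1.23% higher. The median log2 fold change was 0.04 over the members and 0.00 over all genes tested.

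*Arntl* encodes the one partner that the positive limb of the clock cannot do without. It was at 43.2, 31.7 and 40.5 CPM in controls, 25.6, 32.7 and 33.3 in HTN, 26.6, 32.4 and 43.6 in ApoE, and 11.5, 22.2 and 23.7 after MI. Each MI library lay below each of the other 9 libraries, and MI replicate 2 was the lowest. The order of the group means was Ctr (38.5 ± 6.02), ApoE (34.2 ± 8.65), HTN (30.6 ± 4.26) and MI (19.2 ± 6.64 CPM, SD, n = 3 each), and the first 3 overlapped with one another. After MI, *Arntl* was 2.01-fold lower than in controls, a log2 fold change of -1.01 ± 0.26 (SE) with a 95% confidence interval of -1.56 to -0.45. Its unadjusted p was 0.00186, the 11th smallest of all genes in that comparison, and its Benjamini-Hochberg adjusted p in edgeR was 1.00. *Arntl* was 1 of 734 genes (4.59%) whose MI libraries all lay below the controls. Without MI replicate 2 the log2 fold change was -0.74 (unadjusted p = 0.00580). With no filter on low counts, which widened the test to 36003 genes, *Arntl* passed the threshold (log2 fold change -1.02, edgeR adjusted p = 0.000656) as 1 of 130 genes. In that fit each p is the normal tail of the fold change over its SE (0.21 for *Arntl*). It makes no allowance for the small number of mice, as the main fit does, so this call cannot be set beside the main test.

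Tested directly against the other diseases, *Arntl* was lower after MI than in HTN by a log2 value of -0.67 ± 0.26 (SE, unadjusted p = 0.0215, edgeR adjusted p = 0.579) and lower than in ApoE by -0.84 ± 0.26 (SE, unadjusted p = 0.00642, edgeR adjusted p = 0.221). Of all genes, 8.41% had an unadjusted p under 0.05 in the first of these comparisons and 12.7% in the second. Without MI replicate 2 the value against HTN was -0.41 (unadjusted p = 0.0859), and it also missed an unadjusted p of 0.05 without HTN replicate 3 (-0.62, unadjusted p = 0.0577) and without HTN replicate 4 (-0.61, unadjusted p = 0.0613). Markers of neutrophils moved with this comparison: all 10 listed genes were higher after MI than in HTN, 5 of them at an unadjusted p under 0.05 and none past the adjusted threshold, and their sum was 64217 to 91152 CPM after MI against 37806 to 54136 in HTN. With the log2 neutrophil sum as a covariate, *Arntl* was lower than in HTN by -0.56 (unadjusted p = 0.126). The MI libraries are shared between these comparisons and the one with controls, so the 3 values are not independent. In the test for any difference among the 4 groups, *Arntl* had an unadjusted p of 0.0118, against 7.48% of genes under 0.05, and an edgeR adjusted p of 0.473. In HTN against controls the log2 fold change of *Arntl* was -0.33 (95% confidence interval -0.88 to 0.22), and in ApoE it was -0.17 (-0.72 to 0.38).

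No other gene of the Arntl-phase arm reached an unadjusted p under 0.05 after MI. *Clock*, the usual partner of *Arntl*, was at 13.5, 16.6 and 12.3 CPM in controls and at 17.0, 11.5 and 15.2 after MI, and the groups overlapped. Its log2 fold change was 0.05 (95% confidence interval -0.41 to 0.51). *Npas2*, the alternative partner, was at 0.673, 0.271 and 0.272 CPM in controls and at 0.552, 0.265 and 0.405 after MI, levels of a few counts on which the interval of the difference ran from -1.10 to 1.17. *Cry1* was at 48.9, 59.8 and 67.1 CPM in controls and at 49.7, 60.6 and 50.5 after MI, with a log2 fold change of -0.13 (-0.47 to 0.22). The intervals of *Clock* and *Cry1* leave out a log2 change of 1 in either direction, and that of *Npas2* does not.

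Among the genes of the Dbp-phase arm, which ARNTL and CLOCK switch on, *Dbp* was at 4.54, 4.66 and 4.38 CPM in controls and at 2.93, 5.61 and 4.98 after MI. MI replicate 2 was the lowest of all 12 libraries and MI replicate 3 the highest, and the log2 fold change was -0.01 (95% confidence interval -0.58 to 0.57). *Nr1d1*, which encodes the repressor REV-ERB alpha, was at 1.57, 1.62 and 1.63 CPM in controls and at 2.10, 1.96 and 1.27 after MI, a log2 fold change of 0.14 (-0.66 to 0.95). *Nr1d1* overlaps *Thra* on the opposite strand of chromosome 11, and *Dbp* overlaps *Sphk2* on the opposite strand of chromosome 7; which strand setting of the counting was taken is not given in the sources used here, so reads of the overlapping stretches may belong to either gene. *Nr1d2*, which encodes the related REV-ERB beta, was at 4.82, 6.66 and 4.38 CPM in controls and at 7.67, 4.60 and 5.33 after MI (log2 fold change 0.15, -0.54 to 0.85). *Tef* was at 7.29, 7.64 and 6.87 CPM in controls and at 10.4, 6.61 and 7.53 after MI (log2 fold change 0.17, -0.27 to 0.61). *Per2* was at 8.13, 10.5 and 12.2 CPM in controls and at 8.12, 10.7 and 9.67 after MI (log2 fold change -0.11, -0.59 to 0.36). In each of these 5 genes the MI and control libraries overlapped.

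*Per1*, a repressor of the loop that is also switched on directly by glucocorticoids, was at 10.7, 9.42 and 8.50 CPM in controls and at 28.3, 9.95 and 10.1 after MI. A single library, MI replicate 2, lay far above the rest, and the other MI libraries lay within the range of the controls. The log2 fold change was 0.76 ± 0.34 (SE, unadjusted p = 0.0420, edgeR adjusted p = 1.00), and without MI replicate 2 it was 0.07 (unadjusted p = 0.723). Against HTN, *Per1* was higher after MI by 0.78 ± 0.34 (SE, unadjusted p = 0.0370, edgeR adjusted p = 0.581), and without MI replicate 2 by 0.09 (unadjusted p = 0.639). In that library 5 of the 8 listed genes that respond to glucocorticoids were at their highest of the 12 libraries. *Fkbp5*, which encodes a chaperone of the glucocorticoid receptor, was at 135 CPM in MI replicate 2 and at 31.9 to 50.6 in the other 11 libraries, and *Klf9* was at 115 CPM against 23.7 to 38.2. *Dusp1*, *Sgk1* and *Errfi1* were not at their highest there, and *Dusp1*, at 1059 CPM, lay within the range of the other libraries (671 to 1255). Over the 8 listed genes the mean log2 level in MI replicate 2 was 1.20 above the control mean, while the other libraries lay between -0.33 and 0.23. None of the 8 passed the adjusted threshold after MI; 7 were higher and 1 lower, with a median log2 fold change of 0.41. MI replicate 2 thus held the highest *Per1*, the lowest *Arntl* and *Dbp* and the highest mean level of these 8 genes. Over the 12 libraries, log2 *Arntl* and the mean log2 level of these 8 genes had a Pearson r of -0.52. Over the 11 libraries without MI replicate 2 it was 0.74, the other sign. For *Per1* the values were 0.92 and 0.45. The part of these 8 genes in the *Arntl* and *Per1* values was not tested beyond leaving that library out.

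**Figure D2:**
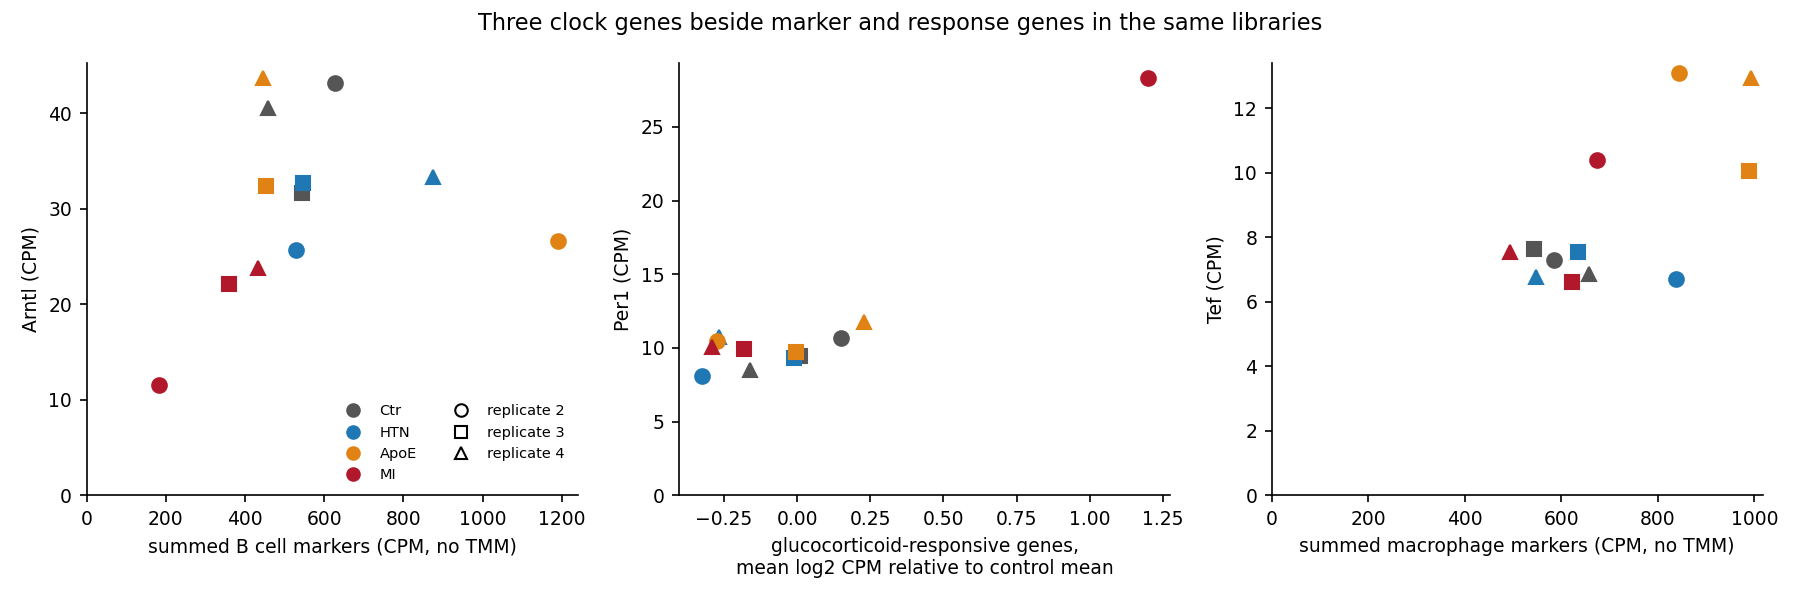
Each point is 1 library, coloured by group and shaped by replicate number. Left, *Arntl* (CPM) against summed B cell markers (CPM without TMM factors); middle, *Per1* (CPM) against the mean log2 level of 8 glucocorticoid-responsive genes relative to controls; right, *Tef* (CPM) against summed macrophage markers (CPM without TMM factors). MI replicate 2 is at the lower left of the first panel (11.5 and 182 CPM) and alone at the upper right of the second, and the 3 ApoE libraries have the highest macrophage sums (844 to 992 CPM).

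Markers of B cells were, like *Arntl*, lower after MI. All 8 of the listed genes were lower after MI than in controls, 6 of them at an unadjusted p under 0.05 and none past the adjusted threshold, and the median log2 fold change was -0.83. Their summed level was 182 to 434 CPM after MI, 458 to 628 in controls, 529 to 875 in HTN and 446 to 1190 in ApoE, and none was at 0 in every library. ApoE replicate 2, with the highest B cell sum, had an *Arntl* level of 26.6 CPM, below all controls. Over the 12 libraries, log2 *Arntl* and the log2 B cell sum had a Pearson r of 0.58, which was 0.05 over the 11 libraries without MI replicate 2. With the log2 B cell sum as a covariate, a fit added after the data were seen, the log2 fold change of *Arntl* after MI was -0.92 (unadjusted p = 0.00722). The part of B cells in the *Arntl* value was otherwise not tested. An antibody to B220 was among those used to deplete lineage cells.

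Among the 5 genes whose log2 CPM followed *Arntl* most closely over the 12 libraries, out of 10459 considered, were *Plekha2* (Pearson r = 0.93), *Cnp* (0.91), *Rasgrp1* (0.90) and *Prmt2* (0.90). After each group's mean was subtracted, r for these 4 lay between 0.75 and 0.90, and without MI replicate 2 between 0.73 and 0.83. The genes most like *Dbp* were *Ccdc138*, *Ero1l*, *AC025794.1*, *Haus8* and *Glrx*, with r between 0.87 and 0.90. No gene appeared in both groups. These values describe the shared libraries and depth of the points and carry no test.

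In HTN, no member reached an unadjusted p under 0.05 against controls, 0 of 10 members, against 3.71% of all genes, and no gene in the table passed the adjusted threshold (0%). The 4 genes of the Arntl-phase arm all had log2 fold changes below 0, with a median of -0.28, against -0.01 over all genes. Of these, *Clock* was at 11.2, 11.8 and 13.2 CPM in HTN (log2 fold change -0.23, SE 0.21), and *Cry1* at 55.7, 56.4 and 53.5 CPM (-0.09, SE 0.16). *Npas2*, at 0.409, 0.219 and 0.300 CPM, had the most negative value of the 10 and the widest error (-0.35, SE 0.53). The Dbp-phase arm lay close to controls, with log2 fold changes between -0.07 (*Nr1d1*) and 0.06 (*Per2*). *Dbp* was at 4.54, 4.82 and 3.81 CPM, *Per1* at 8.13, 9.33 and 10.7, *Per2* at 8.53, 11.6 and 12.1, and *Tef* at 6.72, 7.53 and 6.76. *Nr1d1* was at 1.77, 1.31 and 1.502 CPM. *Nr1d2* spread widely, at 7.08, 6.00 and 2.85 CPM, and HTN replicate 4 was the lowest of all 12 libraries. Neutrophil markers summed to 37806 to 54136 CPM in HTN against 59597 to 78641 in controls, and all 10 listed genes were lower, none at an unadjusted p under 0.05; with their log2 sum as a covariate, *Npas2*, *Per1* and *Per2* changed sign in HTN. No member's HTN libraries lay wholly apart from the controls, a separation that 16.8% of all genes showed.

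In ApoE, the member that stood apart was *Tef*, which encodes a D-box activator related to *Dbp*. It was at 13.1, 10.04 and 12.9 CPM in ApoE, at 7.29, 7.64 and 6.87 in controls and at 6.72, 7.53 and 6.76 in HTN, so that every ApoE library lay above every control and HTN library. MI replicate 2, at 10.4 CPM, lay within the ApoE range. Relative to controls, *Tef* was 1.66-fold higher, a log2 fold change of 0.73 ± 0.20 (SE, unadjusted p = 0.00326, edgeR adjusted p = 0.401). It was the only member of 10 at an unadjusted p under 0.05, against 5.97% of all genes, or 3.97% higher, and ApoE libraries all above controls were found for 5.06% of genes. The adjusted threshold was passed by 23 genes (0.144%) and by no member. Against HTN, *Tef* was higher by 0.78 ± 0.20 (SE, unadjusted p = 0.00200, edgeR adjusted p = 0.354, against 5.94% of genes under 0.05), and after MI it was lower than in ApoE, with a log2 fold change of -0.56 (unadjusted p = 0.0164, edgeR adjusted p = 0.293). That last value missed an unadjusted p of 0.05 without MI replicate 3 (-0.42, unadjusted p = 0.0776) and without MI replicate 4 (-0.50, unadjusted p = 0.0568), in a fit of only the MI and ApoE libraries (-0.55, unadjusted p = 0.0615) and with the log2 neutrophil sum as a covariate (-0.54, unadjusted p = 0.0683). All 10 neutrophil markers were higher after MI than in ApoE, 2 of them at an unadjusted p under 0.05 and none past the adjusted threshold, and the median log2 fold change was 0.61. In the test for any difference among the 4 groups, *Tef* had the smallest p of the members (unadjusted p = 0.00581, edgeR adjusted p = 0.367).

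Macrophage markers were, like *Tef*, higher in ApoE. All 7 listed genes were higher in ApoE than in controls, 5 of them at an unadjusted p under 0.05 and 2 of them, *C1qa* and *Cd5l*, past the adjusted threshold, and the median log2 fold change was 0.77. Their sum was 844 to 992 CPM in ApoE, 543 to 656 in controls, 548 to 837 in HTN and 494 to 674 after MI, and none was at 0 in every library. HTN replicate 2, at 837 CPM of macrophage markers, had a *Tef* level of 6.72 CPM. With the log2 macrophage sum as a covariate, a fit added after the data were seen, the log2 fold change of *Tef* in ApoE was 0.70 and its unadjusted p rose to 0.0637. Over the 12 libraries, *Tef* and the macrophage sum had a Pearson r of 0.67 on the log2 scale, which was 0.03 after each group's mean was subtracted. The log2 sum of T and NK cell markers had an r of -0.60 with *Tef*, and -0.70 after that subtraction. For the mean of the glucocorticoid-responsive genes the values were 0.39 and 0.75. The part of these in the *Tef* value was not tested. In the same comparison all 10 neutrophil markers were lower in ApoE than in controls, 1 of them at an unadjusted p under 0.05 and none past the adjusted threshold, with a median of -0.40 and a sum of 34653 to 68852 CPM against 59597 to 78641. With the log2 neutrophil sum as a covariate, *Tef* in ApoE was at 0.72 (unadjusted p = 0.0100). Of the 12 endothelial markers, 7 were higher in ApoE and 5 lower, with 3 higher at an unadjusted p under 0.05 (*Pecam1*, *Vwf* and *Flt4*) and none past the adjusted threshold, and their sum was 182 to 283 CPM in ApoE against 141 to 240 in controls.

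The remaining members overlapped between ApoE and controls. *Dbp* was at 3.11, 3.76 and 4.74 CPM in ApoE, with a log2 fold change of -0.23 (SE 0.27), the opposite sign to *Tef*. *Nr1d1* was at 3.69, 1.29 and 1.88 CPM, and ApoE replicate 2 was the highest of the 12 libraries; its log2 fold change was 0.52 (SE 0.37). *Nr1d2* was at 6.85, 6.17 and 8.05 CPM (0.41, SE 0.32). These are the 2 *Nr1d* genes, and both stayed within the spread of the mice. *Per1* was at 10.5, 9.69 and 11.8 CPM (0.16, SE 0.34), and *Per2* at 11.5, 8.99 and 13.1 CPM (0.12, SE 0.22). In the Arntl-phase arm, *Cry1* was at 45.4, 43.8 and 58.2 CPM (-0.26, SE 0.16), *Clock* at 20.4, 13.2 and 13.8 CPM (0.16, SE 0.21), and *Npas2* at 0.267, 0.587 and 0.611 CPM (0.28, SE 0.52).

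**Figure D3:**
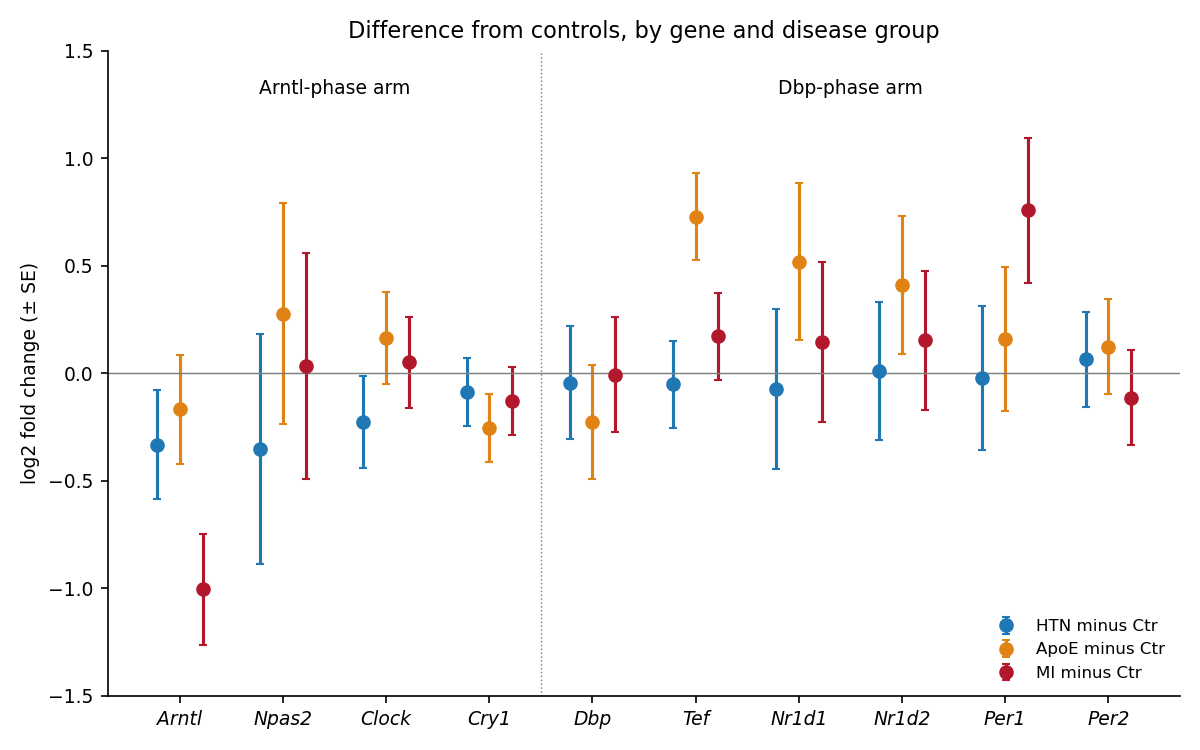
Log2 fold change of each clock gene against controls (vertical axis, ± SE from the edgeR quasi-likelihood fit, n = 3 mice per group) in HTN, ApoE and MI, with the Arntl-phase arm left of the dotted line and the Dbp-phase arm right of it. *Arntl* after MI (-1.01), *Per1* after MI (0.76) and *Tef* in ApoE (0.73) lie farthest from 0, and the same 3 controls enter every value.

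The arms were then compared in each library, as the mean log2 CPM of their genes relative to the control mean. The Arntl-phase arm was at -0.30, -0.34 and -0.17 in the MI libraries, at -0.21, -0.27 and -0.16 in HTN, at -0.18, -0.05 and 0.19 in ApoE, and at 0.15, -0.08 and -0.06 in controls. All MI and HTN libraries thus lay below all controls, and ApoE overlapped with them. The Dbp-phase arm was at 0.34, 0.07 and -0.01 in MI, at 0.00, 0.04 and -0.14 in HTN, at 0.36, 0.00 and 0.40 in ApoE, and at -0.05, 0.09 and -0.04 in controls. No disease group was separated from controls in the Dbp-phase arm. The difference between arms was -0.40 ± 0.24 after MI, -0.27 ± 0.25 in ApoE, -0.18 ± 0.15 in HTN and 0 ± 0.18 in controls (SD, n = 3 each), so the Arntl-phase arm was the lower of the pair in every disease mean. After MI the low arm level rests on *Arntl*: with the median over the 4 genes in place of the mean it was -0.08. These levels are given as descriptions, with no test.

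**Figure D4:**
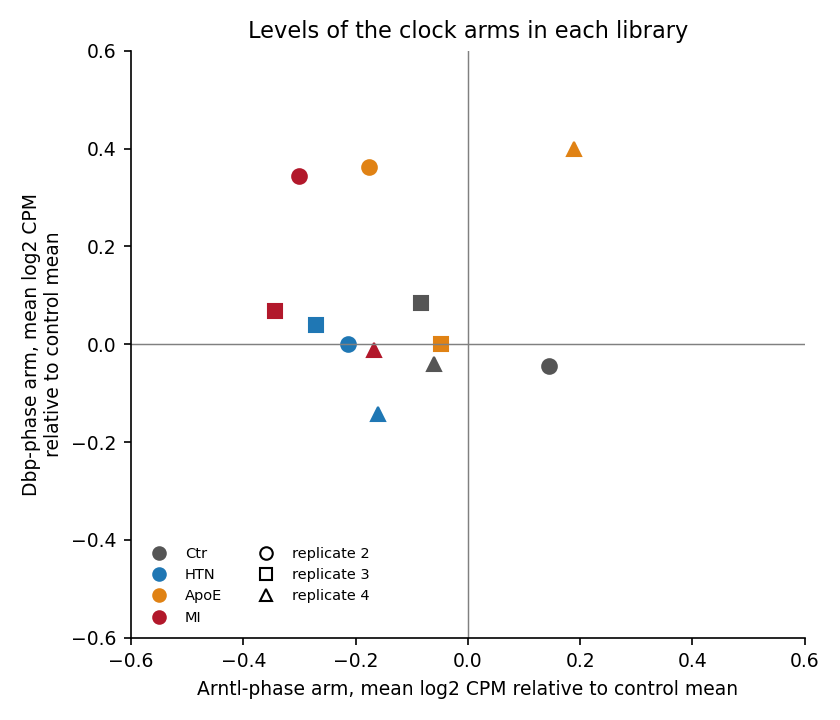
Level of the Arntl-phase arm (horizontal axis) and of the Dbp-phase arm (vertical axis) in each library, as mean log2 CPM of the arm's genes relative to the mean of the controls. Points are single mice, coloured by group and shaped by replicate number; MI and HTN libraries lie left of all controls (-0.34 to -0.16), and MI replicate 2 and ApoE replicates 2 and 4 lie highest in the Dbp-phase arm (0.34 to 0.40).

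The ratio of *Arntl* to single genes of the other arm had its lowest group mean after MI for *Dbp*, *Per1* and *Nr1d1*. For *Dbp*, ApoE lay at the level of controls. These ratios hold the *Arntl* values given above and are not separate results. *Dbp* itself had a log2 fold change of -0.01 after MI, so its ratio restates the *Arntl* values. Log2 *Arntl* minus log2 *Dbp* was 3.05 ± 0.27 in controls, 3.10 ± 0.06 in ApoE, 2.77 ± 0.31 in HTN and 2.05 ± 0.16 after MI (SD, n = 3 each), and the 3 MI libraries (1.94 to 2.23) lay below all others. Log2 *Arntl* minus log2 *Per1* was 1.99 ± 0.25 in controls and -1.29, 1.15 and 1.23 in the MI libraries, which lay below all others as well. Log2 *Arntl* minus log2 *Nr1d1* was 4.48 ± 0.25 in controls and 2.40, 3.44 and 4.12 after MI, and here ApoE replicate 2, at 2.82, fell among the MI libraries.

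Across the 12 libraries the arms did not run against each other as sets. Of the 24 pairs with a gene in each arm, 13 had a negative Pearson r of log2 CPM, with a median of -0.07 and a range of -0.70 to 0.64. Within the Arntl-phase arm the median of 6 pairs was -0.16, and within the Dbp-phase arm the median of 15 pairs was 0.14. After subtraction of group means, 11 of the 24 pairs between arms were negative (median 0.05). The most negative pair was *Arntl* and *Per1* (-0.70), which was 0.27 without MI replicate 2. *Arntl* and *Dbp*, the genes that give the arms their names, had an r of 0.42, which was -0.12 without that library. The most positive pair between arms was *Clock* and *Tef* (0.64, and 0.61 without it). *Tef* and *Nr1d2* had an r of 0.64 and *Tef* and *Dbp* one of -0.56. The points share 4 groups and 12 libraries, and no test was made.

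Of 15 other clock genes, 13 had enough counts to test, and none passed the adjusted threshold in any of the 6 comparisons. *Arntl2*, the paralog of *Arntl*, had 0 to 6 counts per library and was not tested. *Per3*, the third *Per* gene, was at 14.6, 12.8 and 10.01 CPM in controls, at 13.3, 10.5 and 13.02 in HTN, at 12.7, 10.7 and 9.32 in ApoE and at 11.2, 13.7 and 17.7 after MI, with no group apart. *Cry2*, the paralog of *Cry1*, lay between 5.86 and 12.5 CPM and likewise overlapped throughout. At an unadjusted p under 0.05, the genes of this list were 0 of 13 after MI, 1 of 13 in HTN and 0 of 13 in ApoE, each against controls, where 2.8%, 3.71% and 5.97% of all genes lay under it. The gene in HTN was *Rorb*, an activator that competes with NR1D proteins, at 0.499, 0.569 and 0.551 CPM against 0.224, 0.217 and 0.310 in controls (log2 fold change 1.07 ± 0.46, SE, unadjusted p = 0.0357). It rested on 4 to 14 counts per library. Its relative *Rora* was higher in ApoE than in HTN (0.67 ± 0.30, SE, unadjusted p = 0.0409), 1 of 13 there, against 5.94% of all genes. ApoE replicate 2 was the highest of the 12 libraries for *Rora*, at 8.09 CPM. After MI the 13 genes had a median log2 fold change of 0.18 against controls, in HTN -0.06 and in ApoE 0.15.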

How the data were processed

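Polyadenylated RNA of sorted bone marrow cells was sequenced in 12 libraries. The authors aligned reads to GRCm38.p6 with STAR 2.7.3a and deposited raw gene counts from its own counting, without normalization; the strand column is not given in the sources used here. Counts were analysed in R 4.3.3 with edgeR 4.0.16: filterByExpr, TMM factors, 1 coefficient per group over 12 libraries (8 residual degrees of freedom), the quasi-likelihood F test, two-sided, and Benjamini-Hochberg adjustment over 15999 genes, called at an adjusted p under 0.05. The standard error is the fold change over the root of F, and confidence intervals use its degrees of freedom. Log2 CPM for arms and correlations used a prior count of 2. The fit was also run on simulated counts, drawn with 1 common dispersion (0.063) for all genes. Such counts lack the differences in spread between genes and libraries, so that run cannot show how the test behaves on these data. An exact permutation test of 3 libraries against 3 cannot go below 0.1 and is not reported. Positions and exon lengths came from a GRCm38 annotation, in which 181 rows of the table had no entry.

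Total counts were 17007088 to 25136936 per library, and floors cover counting error only. The p-values of the main test rest on the spread between the mice, estimated over the 4 groups together. Those of the fit without a low-count filter make no allowance for the small number of mice. Replicates differed by more than sampling noise. Same-numbered libraries had correlated deviations from group means of r between -0.28 and 0.30 (median -0.02), so numbers were not taken as pairs.

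The members and all lists were chosen with earlier results of these data known. All members are named; other listed genes are named where an unadjusted p was under 0.05 in any comparison or where they are paralogs of a member, and 5 genes each by likeness to *Arntl* and *Dbp* at a mean log2 CPM of at least 2. Results of some genes that this rule names are not reported here. *Fkbp5*, *Dusp1*, *Sgk1*, *Errfi1*, *C1qa*, *Cd5l*, *Pecam1*, *Vwf* and *Flt4* were named after their values were seen. Alternatives were edgeR's likelihood-ratio test, DESeq2 1.42.0, RLE factors, other low-count filters, only the groups compared, the replicate block, marker covariates (neutrophil, erythroid and, added after seeing the data, B cell and macrophage), a prior count of 0.5, medians over arms, and each library left out.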

Additional observations from a re-analysis of the deposited data

How the results depend on the processing

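No member passed the adjusted threshold in any comparison, and under the alternatives this changed as follows. With no filter on low counts, 1 member (*Arntl*) was called after MI against controls, 1 (*Arntl*) after MI against ApoE (log2 fold change -0.85) and 1 (*Arntl*) in the test of any difference. With DESeq2, 1 member (*Tef*) was called in that last test. The cause was not tested. In the no-filter fit, the p of a comparison of 2 groups is a normal tail that makes no allowance for the small number of mice. Its calls are therefore not on the scale of the main test. Leaving out 1 library at a time gave 0 called members in each comparison. *Arntl* after MI against controls was below 0 in all 23 alternatives, from -1.19 to -0.74 when 1 library was left out. Its unadjusted p lay between 1.3e-06 and 0.00818 and its adjusted p between 0.000656 and 1.00, and the lowest of each came from the no-filter fit. *Per1* after MI ran from 0.07 to 1.01 when 1 library was left out. *Arntl* after MI against HTN had an unadjusted p under 0.05 in 17 of 21 alternatives, and *Tef* in ApoE against controls in 22 of 23. With the replicate number as a block, 1 member (*Arntl*, log2 fold change -1.06) had an unadjusted p under 0.05 after MI, against 2 without it (*Arntl* and *Per1*), and no count of adjusted calls changed. The difference between arms ran from -0.53 to -0.28 after MI, from -0.27 to -0.09 in HTN and from -0.37 to -0.13 in ApoE when 1 library was left out. Over the 30 differences from controls and the 5 differences between diseases given above, 45 of 790 recomputed values had the other sign, 26 of them with 1 library left out, and none of these passed the adjusted threshold (lowest adjusted p 0.831). Ranges with 1 library left out that cross 0, as log2 fold changes against controls, were as follows. After MI *Npas2* -0.25 to 0.57, *Clock* -0.074 to 0.19, *Dbp* -0.20 to 0.23, *Tef* -0.039 to 0.30, *Nr1d2* -0.089 to 0.35, *Per2* -0.26 to 0.038, and in HTN *Npas2* -0.61 to 0.18, *Cry1* -0.20 to 0.030, *Dbp* -0.12 to 0.052, *Nr1d1* -0.19 to 0.026, *Nr1d2* -0.25 to 0.31, *Per1* -0.12 to 0.073, *Per2* -0.078 to 0.22, and in ApoE *Clock* -0.053 to 0.29, *Nr1d1* -0.0019 to 0.79, *Per2* -0.020 to 0.28. Under other settings the sign changes were these. After MI: *Dbp* 0.0048 with at least 10 counts in every library and 0.00075 with the erythroid covariate, *Npas2* -0.18, -0.10 and -0.40 with the neutrophil, erythroid and B cell covariates, and *Nr1d2* -0.17 with the B cell covariate. In HTN: *Nr1d2* -0.034 and *Per1* 0.0038 with the replicate block, *Npas2* 0.30, *Per1* 0.21 and *Per2* -0.21 with the neutrophil covariate, *Per1* 0.075 with the B cell covariate and *Nr1d2* -0.21 with the macrophage covariate. In ApoE: *Clock* -0.028 and *Per2* -0.12 with the neutrophil covariate, and *Arntl* 0.17, *Npas2* -0.41, *Nr1d2* -0.24 and *Per1* -0.17 with the macrophage covariate. Depth limits *Npas2*, with 5 to 12 counts per library, the most.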

Other observations

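Genes that the clock drives in other tissues, listed as clock output, were measured beside the members. None of the 7 reached an unadjusted p under 0.05 against controls in any disease, and their median log2 fold change was -0.15 after MI (1 above 0 and 6 below), -0.03 in HTN and 0.03 in ApoE. *Wee1*, which encodes a kinase that delays entry into mitosis and whose promoter is a known target of ARNTL, was at 48.7, 61.2 and 55.6 CPM after MI and at 65.6, 72.9 and 73.5 in HTN. The log2 fold change after MI against HTN was -0.36 ± 0.16 (SE, unadjusted p = 0.0386, edgeR adjusted p = 0.581). *Wee1* was the 1 gene of 7 at an unadjusted p under 0.05 there, against 8.41% of all genes. In that comparison 5 of the 7 lay below 0 and 2 above, the highest at 0.36. MI replicate 2 was the lowest of the 12 libraries for *Wee1*. The part of *Arntl* in the *Wee1* value was not tested. Against controls, at 58.4, 71.5 and 73.5 CPM, the *Wee1* value after MI was -0.30 ± 0.16 (SE, unadjusted p = 0.0769, edgeR adjusted p = 1.00).

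Immediate early genes, which respond within minutes to stimulation and to cell handling, were measured because *Per1* is known to respond in this way too. Their median log2 fold change over 8 genes was -0.08 after MI, -0.25 in HTN and 0.20 in ApoE, none at an unadjusted p under 0.05 against controls. Between diseases, *Nr4a1*, an orphan nuclear receptor gene, was at 116, 127 and 101 CPM after MI and at 119, 172 and 293 in ApoE (log2 fold change -0.76, unadjusted p = 0.0208, edgeR adjusted p = 0.315). *Atf3*, which encodes a stress-induced transcription factor, had -0.75 in that comparison (unadjusted p = 0.0438, edgeR adjusted p = 0.376), and *Fosb* was higher in ApoE than in HTN by 0.67 (unadjusted p = 0.0262, edgeR adjusted p = 0.786). An unadjusted p under 0.05 was thus found for 2 of 8 in MI against ApoE, against 12.7% of all genes. In ApoE against HTN it was 1 of 8, against 5.94%, and in MI against HTN 0 of 8, against 8.41%. *Klf9*, 1 of 8 genes of the glucocorticoid list at an unadjusted p under 0.05 there, was higher after MI than in ApoE by 1.00 (unadjusted p = 0.0348, edgeR adjusted p = 0.356). Without MI replicate 2 its MI levels were 30.6 and 26.5 CPM against 23.7 to 32.6 in ApoE. Of 10 erythroid markers, 7 lay above controls after MI, 7 in HTN and 10 in ApoE, with medians of 0.12, 0.17 and 0.37, none past the adjusted threshold and 1 (*Klf1*, in HTN) at an unadjusted p under 0.05.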
